A study of Mus musculus with 21 samples.

Results

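The genes described here are those of oxidative phosphorylation, taken by name from the gene tables of splenic T cells: the subunits of complexes I to V, named Nduf, Sdh, Uqcr, Cox4 to Cox8 and Atp5, and the subunits encoded by mitochondrial DNA, named mt-Nd, mt-Co, mt-Atp and mt-Cytb. The rule used symbols and the protein-coding biotype, and no measured value. It took 107 of 51201 genes, of which 94 are nuclear and 13 are mitochondrially encoded. Another 13 symbol matches that are not protein-coding were left out. Of the nuclear genes, 38 belong to complex I, 4 to complex II, 8 to complex III, 17 to complex IV and 17 to complex V by name, and the remaining 10 are factors whose names fit the same pattern (Ndufaf1 to Ndufaf8, Cox7a2l and Atp5s). Of the mitochondrially encoded genes, 7 belong to complex I, 1 to complex III, 3 to complex IV and 2 to complex V.

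Oxidative phosphorylation is the process by which mitochondria make most of the ATP of a resting cell. Complexes I and II pass electrons to ubiquinone, complex III passes them on to cytochrome c and complex IV to oxygen, and complex V, the ATP synthase, uses the proton gradient that complexes I, III and IV build. Its subunits come from both genomes: the mitochondrial DNA is transcribed as long polycistronic RNAs by a dedicated polymerase, whereas each nuclear subunit has its own promoter, so a working complex needs both sets. Resting T cells rely on this pathway, and activated T cells enlarge their mitochondria while also raising glycolysis.

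All mice were C57BL/6J at postnatal day 35. L-gp130 mice carried 1 copy of the floxed L-gp130 allele together with CD4Cre (genotype L-gp130fl/+;CD4Cre+/-), and control mice carried CD4Cre alone (CD4Cre+/-), so both groups express Cre. L-gp130 is a constitutively active form of gp130, the signal transducer shared by the receptors of the interleukin-6 family. The Cd4 promoter drives Cre in the T cell lineage from the thymus onward, and it acts in precursors of both CD4+ and CD8+ T cells. Polyadenylated RNA was sequenced without strand information from 6 L-gp130 and 6 control CD4+ libraries, selected positively on beads, and from 3 L-gp130 and 6 control CD8+ libraries, selected by removal of other cells. The labels number the mice within each group and give their sex: among CD4 libraries 4 of 6 L-gp130 and 1 of 6 controls were labelled male, and among CD8 libraries 2 of 3 and 4 of 6.

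Gene counts summed to 17781085 to 21226510 per library in L-gp130 CD4 and 27855757 to 35869208 in control CD4 libraries, so depth went with genotype there, and to 17217364 to 19476881 and 17719183 to 19286396 in the L-gp130 and control CD8 libraries. The labelled cell types held against their markers. Cd4 stood at 669.6 to 796 CPM (counts scaled to a common library size) in control CD4 and 3.33 to 20.4 CPM in control CD8 libraries, and Cd8a at 7.76 to 13.9 and 952 to 1219 CPM. In 1 library, control CD4 replicate 5, the sex-linked transcripts went against the labelled sex. Hemoglobin and other erythroid RNA was abundant in CD4 libraries, with 11 listed markers summing to 6818 to 39986 CPM in L-gp130 and 4798 to 27133 CPM in control libraries. Of the 10 tested, 0 were called. In CD8 libraries the same list summed to 128 to 282 and 67.3 to 714 CPM. There 3 of 10 tested markers were called up (Klf1, Car2 and Epb42), where 10.5% of all genes were called up, and the list's median log2 fold change was 0.02. All 17 cell cycle genes tested were called up in L-gp130 CD4 cells and 16 of 17 in L-gp130 CD8 cells, and 6 of 10 T cell markers were called down in L-gp130 CD8 cells. Plasma cell markers had 4 of 7 tested called up in CD4 cells, where the list of 8 summed to 235 to 349 CPM in L-gp130 and 153 to 204 CPM in control libraries. In CD8 cells 2 of 8 were called up (158 to 442 and 74.4 to 159 CPM). Those called in CD8 cells were Xbp1 and Irf4, whereas Jchain, Sdc1, Mzb1, Tnfrsf17, Derl3 and Prdm1 were not called there. Of 10 B cell markers, 4 were called down in CD4 cells (265 to 663 and 283 to 1059 CPM) and 0 in CD8 cells, and of 12 monocyte and macrophage markers, 1 was called down in CD4 and 7 in CD8 cells (284 to 456 and 400.5 to 826 CPM in CD8 libraries). Of 11 immediate early genes, 6 were called up in CD4 (709 to 818 and 484 to 549 CPM) and 2 in CD8 cells. Over all genes tested, 11.1% were called up and 7.75% down in CD4 cells, and 10.5% each way in CD8 cells. The 1 of 12 called down in CD4 cells is near that share, and the 2 of 8 and 2 of 11 called up in CD8 cells are few genes. The part of these marker shifts in the values below was not tested, and in such bulk libraries fewer cells of a type and less RNA per cell cannot be told apart.

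Levels are compared between genes as TPM, which also corrects for transcript length. The 13 mitochondrially encoded genes outweighed the 94 nuclear genes in every library. In control CD4 libraries the nuclear genes summed to 14531 ± 327 TPM (SD, n = 6) and the mitochondrially encoded genes to 87872 ± 11886 TPM (SD, n = 6). Control CD8 libraries had 16533 ± 539 and 81505 ± 6692 TPM (SD, n = 6). Among nuclear genes, complex V held the largest summed level in control CD4 cells (5072 ± 211 TPM, SD, n = 6), ahead of complex I (4012 ± 39.1), complex IV (2977 ± 72.3), complex III (1484 ± 31.7) and complex II (426 ± 18.5). The same order held in control CD8 cells, at 6038 ± 207, 4134 ± 128, 3458 ± 146, 1788 ± 64.4 and 404 ± 10.9 TPM. Atp5b, the catalytic beta subunit of the ATP synthase, was the most abundant nuclear gene, at 1116 ± 101 TPM in control CD4 and 1425 ± 86.3 TPM in control CD8 cells (SD, n = 6). By TPM, mt-Atp8, a short membrane subunit of the ATP synthase, led the mitochondrially encoded genes at 22181 ± 1996 and 24954 ± 3076 TPM, and the complex I subunits mt-Nd5 and mt-Nd6 were the lowest of the 13 (1533 ± 165 and 1687 ± 283 TPM in control CD4 cells). The rank of mt-Atp8 rests on the length correction, since the gene spans only positions 7766 to 7969. As CPM, without that correction, control CD4 libraries had means of 384 for mt-Atp8, 2546 for mt-Atp6 and 8477 for mt-Co1. The mt-Atp8 and mt-Atp6 genes share 43 bases, mt-Nd4l and mt-Nd4 share 7 and the oppositely transcribed mt-Nd5 and mt-Nd6 share 14, so unstranded reads from those stretches cannot be assigned. Over the rest of mt-Nd6, unstranded reads cannot be told from those of RNA made from the opposite strand.

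The spread over libraries differed between the genomes. Summed nuclear levels ran from 14130 to 14904 TPM in control CD4 and from 14637 to 18375 TPM in L-gp130 CD4 libraries, with 5 of the 6 L-gp130 libraries above every control and replicate 4 inside the control range. In CD8 libraries they were 19460, 18799 and 16619 TPM in L-gp130 replicates 1 to 3, against 16004 to 17534 TPM in controls, so 2 of the 3 lay above every control. Summed mitochondrially encoded levels in L-gp130 CD4 replicates 1 to 6 were 112441, 81777, 107881, 137515, 87028 and 73808 TPM, and in control CD4 replicates 1 to 6 they were 111397, 87971, 83315, 83238, 78854 and 82459 TPM. The high CD4 libraries were L-gp130 replicates 1, 3 and 4 and control replicate 1, all labelled male. L-gp130 replicate 5, also labelled male, was not among them. In CD8 libraries the mitochondrially encoded sums were 96580, 107642 and 100658 TPM in L-gp130 replicates 1 to 3 and 74402 to 89408 TPM in controls, with no overlap.

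**Figure D1:**
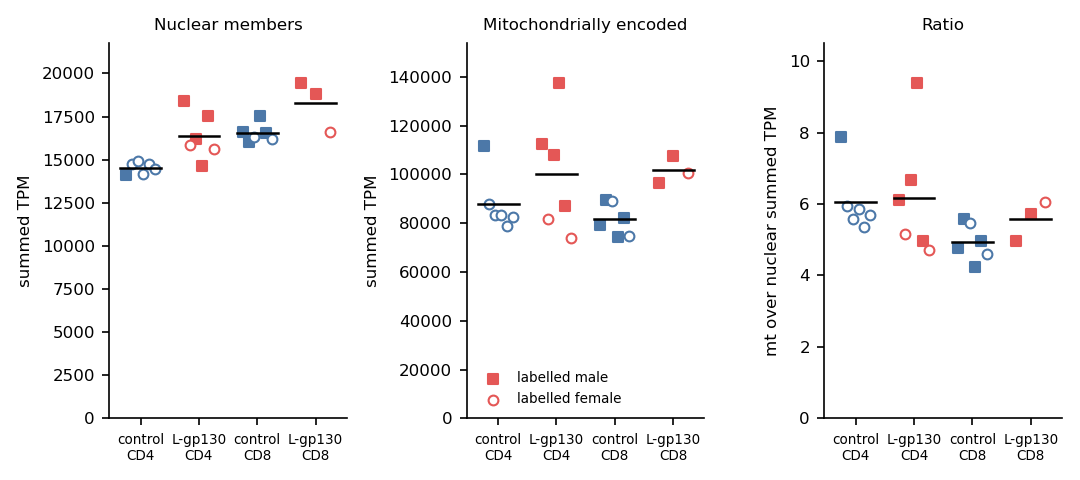
Summed TPM of the nuclear members (left), of the mitochondrially encoded members (middle) and the ratio of the latter to the former (right) in each library, with squares for libraries labelled male, open circles for those labelled female and a line at each group's mean. The 3 L-gp130 CD8 libraries lie above all 6 control CD8 libraries for the mitochondrially encoded sum (96580 to 107642 against 74402 to 89408 TPM), whereas the CD4 groups overlap.

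In CD4 cells, nuclear subunits leaned upward in L-gp130 mice by small amounts. The mitochondrially encoded subunits had 5 of 13 positive (median -0.09) with labelled sex in the fit, but all 13 positive (median 0.21) without the sex term and 10 with sex read from the transcripts (median 0.04), so no contrast between the 2 sets holds under each handling of sex. Of 87 nuclear genes tested, 80 had a positive log2 fold change and the median was 0.21, beside a median of -0.01 and 49.5% positive over all 15016 genes tested. The edgeR quasi-likelihood test with Benjamini-Hochberg adjustment called 10 nuclear genes up and 1 down at an adjusted p under 0.05. That is 11.5% called up, near the background, since 11.1% of all genes tested were called up and 7.75% down. Every L-gp130 library was above every control for 10 nuclear genes and below for 1, beside 7.67% and 5.83% of all genes tested. The 7 genes that were not tested stood at or near 0: Cox7b2, Cox8b, Cox8c, Ndufa4l2, Cox4i2, Cox7a1 and a second gene ID named Atp5o.

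Complex IV, cytochrome c oxidase, had 2 genes called up and 1 called down of 12 tested in CD4 cells, with a median of 0.29 and 11 positive. Its share called up was 16.7%, from few genes, where 11.1% of all genes were called up. Cox8a, a small membrane subunit (chromosome 19, 7215153 to 7217616, GRCm38), had the largest rise of the nuclear genes called in this cell type. Its lowest, median and highest levels were 138, 149 and 207 CPM in L-gp130 and 109.7, 113 and 118 CPM in control libraries, so the groups did not overlap (log2 fold change 0.43, SE 0.10, adjusted p = 0.0109). L-gp130 replicate 1 was the highest library, and without it the log2 fold change was 0.37 and still called. In CD8 cells Cox8a had a log2 fold change of 0.20 and was not called (adjusted p = 0.0531). Cox6b1, which joins the partners of the complex IV dimer on its outer face, had 69.4, 81.1 and 107 CPM against 62.8, 64.6 and 70.4 CPM, and 5 of 6 L-gp130 libraries exceeded every control (log2 fold change 0.31, SE 0.10, adjusted p = 0.0476).

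Cox6a2, the heart and muscle isoform of subunit VIa (chromosome 7, 128205435 to 128206387, GRCm38), was the single nuclear gene called down in CD4 cells. L-gp130 replicates 1 to 6 had 0.847, 0.55, 0.679, 0.377, 0.338 and 0.691 CPM and control replicates 1 to 6 had 1.71, 2.95, 2.04, 2.22, 2.59 and 2.77 CPM, with every L-gp130 library below every control (log2 fold change -1.85, SE 0.28, adjusted p = 0.00083). Its call was kept in all 12 fits that left out 1 library, at log2 fold changes of -2.01 to -1.73. The gene is rare in these cells: control CD4 libraries had 7.01 ± 1.62 TPM of Cox6a2 against 472 ± 14.1 TPM of the common isoform Cox6a1 (SD, n = 6). Siglech, a receptor of plasmacytoid dendritic cells, was also lower, at 2.12 to 8.66 CPM in L-gp130 and 14.6 to 43.8 CPM in control CD4 libraries. Of the 8 dendritic cell markers tested, 2 were called down (Siglech and Ccr9) and 0 up, where 7.75% of all genes were called down. The list summed to 131 to 291 CPM in L-gp130 and 202 to 292 CPM in controls, with none of its markers at 0. The part of dendritic cells in the Cox6a2 value was not tested.

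The ATP synthase had 4 genes called up of 16 tested in CD4 cells (25%, where 11.1% of all genes were called up), and all 16 log2 fold changes were positive (median 0.21). Atp5g1, Atp5g2 and Atp5g3 encode the same mature c subunit of the membrane ring. Atp5g1 had 53, 67.3 and 82.3 CPM (lowest, median and highest) in L-gp130 and 47, 50.1 and 55.2 CPM in control CD4 libraries (log2 fold change 0.41, SE 0.10, adjusted p = 0.0165). Atp5g3 had 136, 163 and 197 and 119.7, 128 and 136 CPM (log2 fold change 0.32, SE 0.09, adjusted p = 0.0338). In both, L-gp130 replicate 4 was inside the control range and the other 5 were above it. Atp5g2 was not called, at 7.53, 14.5 and 22.5 and 9.87, 12.6 and 14.4 CPM (log2 fold change 0.21, SE 0.25, adjusted p = 0.605). The catalytic subunit gene Atp5b had 627, 784 and 902 and 572, 618 and 663 CPM, with 5 of 6 L-gp130 libraries above every control (log2 fold change 0.33, SE 0.10, adjusted p = 0.0381). Atp5d, the delta subunit of the central stalk, had 144, 155 and 198 and 126, 127 and 139 CPM without overlap (log2 fold change 0.25, SE 0.08, adjusted p = 0.039).

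Complex I, NADH dehydrogenase, had 4 of 37 tested nuclear genes called up and 0 down in CD4 cells (median 0.20, 34 positive). Its share called up, 10.8%, is no higher than the 11.1% of all genes. Ndufs8, an iron-sulfur subunit of the electron path to ubiquinone, had 41.4, 46.8 and 55.3 CPM in L-gp130 and 34.7, 37.5 and 38.9 CPM in control libraries without overlap (log2 fold change 0.28, SE 0.08, adjusted p = 0.0308). Ndufv2, which sits beside the NADH binding site, did not overlap either, at 57.3, 64.4 and 73.9 against 48.8, 52.9 and 56.7 CPM (log2 fold change 0.26, SE 0.08, adjusted p = 0.0294). The accessory subunits Ndufa3 and Ndufa12 had log2 fold changes of 0.36 (SE 0.10, adjusted p = 0.022) and 0.36 (SE 0.12, adjusted p = 0.046). Complexes II and III had 0 genes called of 4 and 8 tested, with all 12 log2 fold changes positive (medians 0.15 and 0.24). Of the 10 assembly-type factors, 0 were called.

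These CD4 calls lay close to the threshold. Leaving out 1 library at a time moved the number of nuclear genes called up from 10 to between 0 and 27. It was 0 without L-gp130 replicate 6 or without control replicate 1, the single control labelled male, and 27 without L-gp130 replicate 4. Without control replicate 1, the fit with labelled sex drew the genotype effect from labelled females alone. All libraries but L-gp130 replicate 3 moved the number called up by over 1.5 times when left out. The number of positive log2 fold changes stayed at 76 to 81 of 87 in those fits. Each of the 10 calls was lost in at least 2 of the 12 fits. Without the sex term 44 nuclear genes were called up, with the sex read from the transcripts 25, among labelled females alone 30 and with all libraries thinned to equal depth 6, and 78 to 83 were positive under these settings.

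**Figure D2:**
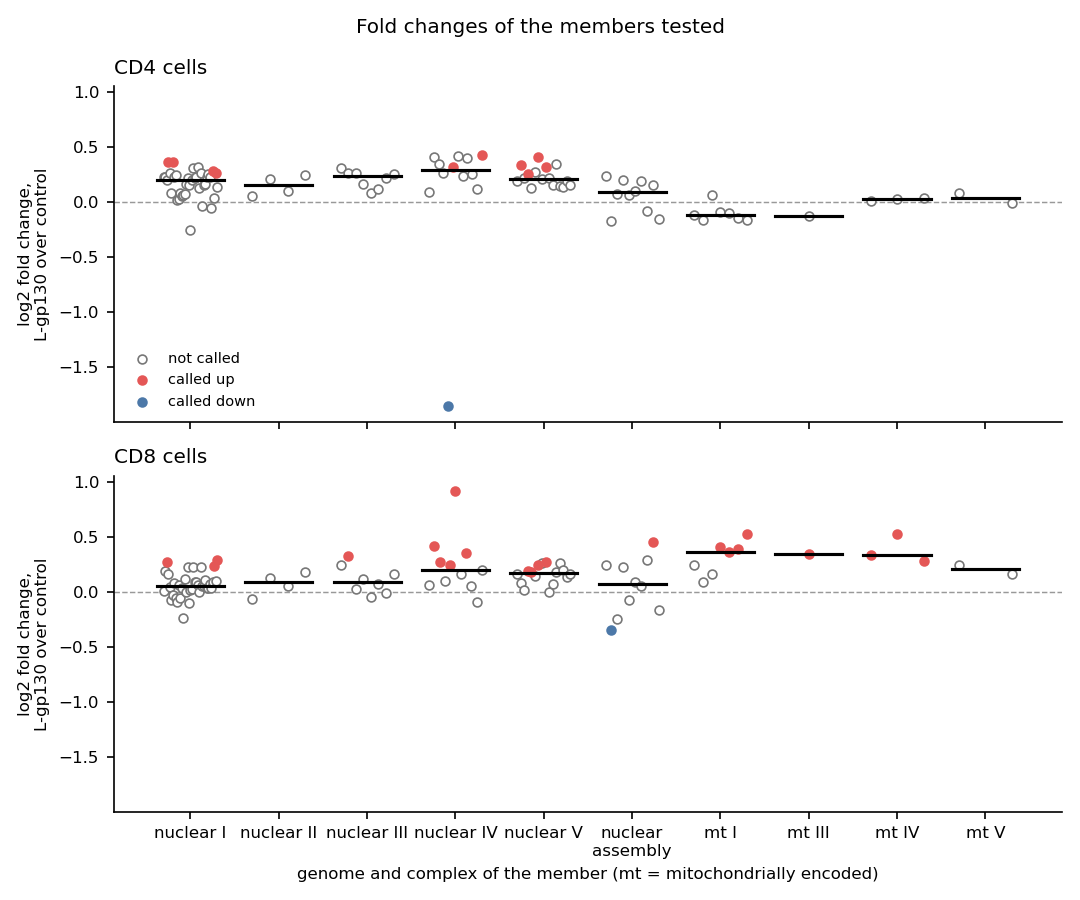
Log2 fold change of L-gp130 over control for each member tested, by genome and complex, in CD4 cells (top) and CD8 cells (bottom), with lines at the medians and filled points for genes called at an adjusted p under 0.05. The nuclear sets sit mostly above 0 in CD4 cells (80 of 87 genes), and the mitochondrially encoded sets are above 0 in CD8 cells (13 of 13) but not in CD4 cells in this fit with labelled sex (5 of 13).

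In CD8 cells, both sets leaned upward, and it was the mitochondrially encoded genes that had the larger share of calls. Of 86 nuclear genes tested, 70 had a positive log2 fold change, with a median of 0.09 beside -0.01 and 48.4% positive over all 14254 genes. That median was 0.14 without L-gp130 replicate 3 and 0.14 among labelled males. There were 14 called up (16.3%) and 1 down, where 10.5% of all genes tested were called up and 10.5% down. All 3 L-gp130 libraries were above every control for 15 nuclear genes and below for 1, beside 11.8% and 12.4% of all genes tested. The untested genes were those of CD4 cells and Cox6a2.

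Complex IV held 5 of the 14 CD8 rises, of 11 nuclear genes tested (45.5%, where 10.5% of all genes were called up, median 0.20). Cox5a, a subunit on the matrix side (chromosome 9, 57521274 to 57532426, GRCm38), had 88.9, 86.7 and 79.8 CPM in L-gp130 replicates 1 to 3 and 63.7, 60.8, 61.9, 68.6, 66.2 and 61.6 CPM in control replicates 1 to 6. The lowest L-gp130 library was above the highest control (log2 fold change 0.41, SE 0.06, adjusted p = 0.00167), and the call was kept in all 9 fits that left out 1 library, at 0.39 to 0.44. In CD4 cells Cox5a had 126, 66.5, 73.2, 64.5, 86.3 and 83.5 CPM in L-gp130 replicates 1 to 6 and 57.6 to 61.3 CPM in controls, again without overlap but not called (log2 fold change 0.40, SE 0.16, adjusted p = 0.0936). Cox7a2, the common isoform of subunit VIIa, had 57.5, 57.6 and 52.1 CPM in the L-gp130 CD8 libraries and 39.9 to 49.6 CPM in controls (log2 fold change 0.35, SE 0.08, adjusted p = 0.0109). Cox6b1 had 92.9, 94.7 and 81.1 CPM against 68.5 to 82.8 CPM, with replicate 3 inside the control range (log2 fold change 0.24, SE 0.06, adjusted p = 0.0169). Cox5b, a zinc-binding matrix subunit named here after its values were seen because it is the fifth of the complex, had 111, 113 and 91.7 CPM against 79 to 94.6 CPM (log2 fold change 0.27, SE 0.08, adjusted p = 0.0328). In CD4 cells Cox7a2 and Cox5b were not called, with log2 fold changes of 0.39 (SE 0.14, adjusted p = 0.0698) and 0.34 (SE 0.12, adjusted p = 0.0636).

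Cox6b2, the testis isoform of Cox6b1, had the largest log2 fold change of the nuclear genes called in CD8 cells, at a low level. L-gp130 libraries had 6.74, 5.8 and 5.46 CPM and controls 3.02, 4.06, 3.74, 4.04, 2.64 and 1.79 CPM, without overlap (log2 fold change 0.91, SE 0.26, adjusted p = 0.0287). On the TPM scale Cox6b2 stood at 27.4 ± 3.43 (SD, n = 3) in L-gp130 and 14.2 ± 3.85 (SD, n = 6) in control CD8 cells, beside 307 ± 22.9 and 252 ± 17.99 of Cox6b1. In CD4 cells its libraries ran from 0.94 to 5.27 CPM in L-gp130 and 0.879 to 3.5 CPM in controls, where the 2 lowest controls were replicates 1 and 2 (log2 fold change 0.42, SE 0.58, adjusted p = 0.65). The common isoforms dominated the other pairs in all groups: Cox4i1 at 510 to 584 TPM over Cox4i2 at most 0.633, and Ndufa4, now counted as a complex IV subunit, at 241 to 322 TPM over Ndufa4l2 at most 0.254, as group means. Cox7b2, Cox8b and Cox8c had 0 counts in every library, below the limit of 3 counts per group that corresponds to 0.0152 to 0.0538 CPM, for counting error only.

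The ATP synthase had 4 of 16 tested nuclear genes called up in CD8 cells (25%, where 10.5% of all genes were called up), all 16 being positive (median 0.17). Atp5g3 had 178, 168 and 151 CPM in L-gp130 replicates 1 to 3 and 127 to 149 CPM in controls, without overlap (log2 fold change 0.27, SE 0.07, adjusted p = 0.0219). Atp5d had 188, 194 and 173 CPM against 154 to 169 CPM, also without overlap (log2 fold change 0.19, SE 0.06, adjusted p = 0.0394). Atp5g1 had 78.9, 67.1 and 60.0 CPM against 52 to 63.8 CPM, with replicate 3 inside the control range (log2 fold change 0.24, SE 0.08, adjusted p = 0.0468). For Atp5e, the epsilon subunit of the central stalk, the values were 157, 159 and 130.2 and 119 to 138 CPM (log2 fold change 0.18, SE 0.06, adjusted p = 0.0453). In CD4 cells Atp5e had 0.13 (SE 0.10, adjusted p = 0.406). Atp5b, called in CD4 cells, had 869, 862 and 657 CPM against 689 to 805 CPM (log2 fold change 0.08, SE 0.08, adjusted p = 0.498). The genes called up in both cell types were Atp5d, Atp5g1, Atp5g3 and Cox6b1, which is 4 genes of the 10 in CD4 and the 14 in CD8 cells. The same overlap over all genes tested was not worked out, so this count has no background beside it.

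**Figure D3:**
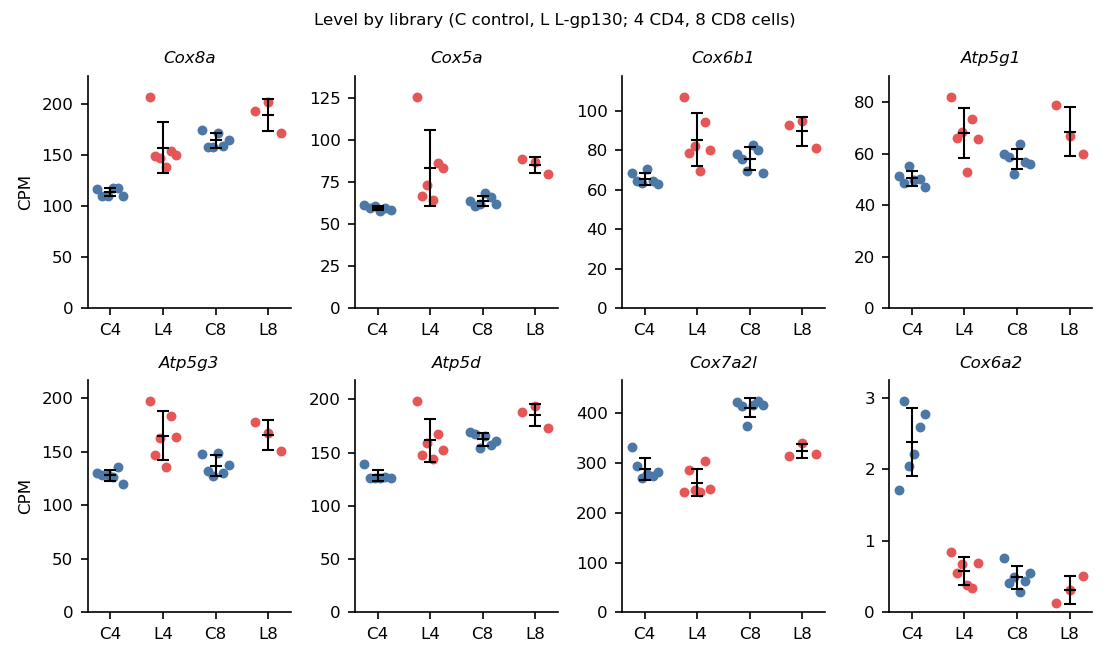
TMM-normalised CPM in each library of 8 nuclear members, with the mean and SD of each group (n = 6 control CD4, 6 L-gp130 CD4, 6 control CD8 and 3 L-gp130 CD8). Cox8a and Atp5d do not overlap between CD4 groups, Cox5a in neither cell type, Cox7a2l is lower in all 3 L-gp130 CD8 libraries, and Cox6a2 is lower in all 6 L-gp130 CD4 libraries.

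Complex I had 3 of 37 tested nuclear genes called up and 0 down in CD8 cells, a share of 8.11% that is below the 10.5% of all genes (median 0.05, 29 positive). Ndufv1, which holds the flavin that takes electrons from NADH, had 77.5, 74.8 and 71.6 CPM in L-gp130 replicates 1 to 3 and 58.9 to 70.4 CPM in controls (log2 fold change 0.24, SE 0.07, adjusted p = 0.0319). Ndufv3, a small subunit beside it, had 58.6, 61.6 and 47.1 CPM against 40.4 to 50.1 CPM, with replicate 3 inside the control range (log2 fold change 0.29, SE 0.07, adjusted p = 0.0159). Ndufa11, a membrane accessory subunit, had 36.3, 43.5 and 37.1 CPM against 29.6 to 35.7 CPM without overlap (log2 fold change 0.27, SE 0.08, adjusted p = 0.0391). In CD4 cells Ndufv1, Ndufv3 and Ndufa11 were not called, with log2 fold changes of 0.03, 0.14 and 0.20 (SE 0.07, 0.08 and 0.11). The 4 complex I genes called in CD4 cells were not called here, with log2 fold changes of -0.03 for Ndufa3, 0.09 for Ndufs8, 0.10 for Ndufv2 and 0.17 for Ndufa12 (SE 0.08, 0.07, 0.07 and 0.10). In complex III, 1 of 8 genes was called up (12.5%, near the 10.5% of all genes). This was Uqcr11, the smallest subunit of complex III, at 43.9, 40.2 and 27.5 CPM against 25.3 to 32.6 CPM, replicate 3 being inside the control range (log2 fold change 0.33, SE 0.10, adjusted p = 0.0364). In CD4 cells Uqcr11 had 0.26 (SE 0.14, adjusted p = 0.221). Complex II, which is also an enzyme of the citric acid cycle, had 0 of 4 called, with log2 fold changes of -0.07 for Sdha, 0.12 for Sdhb, 0.05 for Sdhc and 0.18 for Sdhd.

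The single nuclear gene called down in CD8 cells was Cox7a2l (chromosome 17, 83501918 to 83517330, GRCm38), grouped here with the assembly-type factors. L-gp130 replicates 1 to 3 had 314, 339 and 318 CPM and control replicates 1 to 6 had 421, 413, 374, 416, 424 and 417 CPM, with every L-gp130 library below every control (log2 fold change -0.34, SE 0.06, adjusted p = 0.00278). The call was kept in all 9 fits that left out 1 library (-0.37 to -0.31). In CD4 cells the values overlapped, at 241, 246 and 303 against 269, 279 and 331 CPM (log2 fold change -0.17, SE 0.08, adjusted p = 0.172). Ndufaf7, a methyltransferase that modifies a complex I subunit during assembly, was called up in CD8 cells, at 18.9, 18.6 and 18.6 CPM against 11.1 to 17.2 CPM (log2 fold change 0.45, SE 0.14, adjusted p = 0.0406). In CD4 cells Ndufaf7 had 0.16 (SE 0.11, adjusted p = 0.349). The other 8 assembly-type factors were not called in CD8 cells.

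The CD8 calls of nuclear genes also depended on single libraries. The number called up ran from 2 to 14 over the 9 fits that left out 1 library. It was 2, 2 and 4 without L-gp130 replicates 1 to 3 and 6, 9 and 5 without control replicates 2, 4 and 5, each a move of over 1.5 times. In the same fits the number of positive log2 fold changes ran from 61 to 73. Of the 14 rises, Cox5a alone was called in all of those fits among the 13 that the naming rule covers. Many of these genes have processed pseudogenes that can share their reads, and mitochondrial genes have copies in nuclear DNA. The effect of both on the deposited counts was not tested.

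Some promoters of nuclear members, fewer than held none, have short motifs of factors known for respiratory genes: NRF-1, ETS factors such as GABP, and YY1. Promoter windows, from 250 bases before to 50 after the start, were available for 76 of 93 nuclear symbols and 17491 protein-coding genes (RefSeq, GRCm38.p6). Both strands were searched. The NRF-1 palindrome, GCGCA followed by its reverse complement TGCGC, was in 7 member windows (9.21%, 1.47% of all genes), the ETS letters CCGGAAG in 18 (23.7%, 12.9% of all) and the YY1 letters AAGATGG in 12 (15.8%, 7.18% of all), where the ETS and YY1 letters can share the bases AAG. At least 1 of them was in 33 windows (43.4%, 20.1% of all genes). The upstream parts of 3 genes called up in CD8 cells are shown because each holds such a motif, in capitals, before its start, with bases inside annotated exons left off. The motif lies 96 to 102 bases before the start of Atp5e (ETS), 51 to 60 before that of Ndufa11 (NRF-1) and 60 to 66 before that of Uqcr11 (ETS). Of the other nuclear genes called up in CD8 cells, Cox6b1 held the ETS letters in its window. Cox5a, Cox5b, Cox6b2, Cox7a2, Atp5d, Atp5g1, Atp5g3, Ndufv1, Ndufv3 and Ndufaf7 held none of the motifs. A match is only a description of these letters, and a link between motifs and calls was not tested.
Atp5e promoter, chr2:174464106-174464251, minus strand: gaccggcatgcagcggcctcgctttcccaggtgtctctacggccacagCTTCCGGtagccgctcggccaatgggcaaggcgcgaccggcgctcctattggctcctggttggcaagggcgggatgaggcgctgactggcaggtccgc
Ndufa11 promoter, chr17:56717686-56717761, plus strand: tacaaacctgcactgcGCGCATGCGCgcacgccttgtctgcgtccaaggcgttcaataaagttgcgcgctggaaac
Uqcr11 promoter, chr10:80406831-80406971, minus strand: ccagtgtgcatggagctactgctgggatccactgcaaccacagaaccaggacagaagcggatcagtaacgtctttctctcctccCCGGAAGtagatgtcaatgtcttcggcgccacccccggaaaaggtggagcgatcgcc

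Among the 13 mitochondrially encoded genes, 8 were called up and 0 down in L-gp130 CD8 cells (61.5%, where 10.5% of all genes were called up), and all 13 log2 fold changes were positive with a median of 0.34. They come from the same libraries, and 12 of the 13 from the polycistronic transcript of 1 strand, so they are not 13 independent measurements. In complex I, mt-Nd6, encoded alone on the light strand (mitochondrial positions 13552 to 14070), had 331, 388 and 389.9 CPM in L-gp130 replicates 1 to 3 and 274, 271, 266, 256, 270.0 and 208 CPM in control replicates 1 to 6 (log2 fold change 0.52, SE 0.09, adjusted p = 0.0031). The proton-pumping subunit mt-Nd5 had 1585, 1833 and 1774 CPM against 1223 to 1395 CPM (log2 fold change 0.39, SE 0.06, adjusted p = 0.00223). For both genes every L-gp130 library exceeded every control, and the call was kept in all 9 fits that left out 1 library. Reads over mt-Nd6 can include RNA of the opposite strand in these unstranded libraries, so its rise cannot be set apart from that strand. The neighbouring pump subunits mt-Nd4 and mt-Nd4l had 1985, 2311 and 2252 CPM against 1455 to 1831 CPM and 339, 376 and 353 CPM against 244 to 314 CPM, with log2 fold changes of 0.40 and 0.36 (SE 0.08 and 0.08, adjusted p = 0.00612 and 0.0101).

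mt-Cytb, the cytochrome b of complex III, had 2115, 2436 and 2204 CPM against 1541 to 2011 CPM (log2 fold change 0.35, SE 0.09, adjusted p = 0.0186). In complex IV, all 3 core subunits were called. mt-Co1, which holds the oxygen-reducing centre, had 8529, 10079.9 and 9999.9 CPM against 6676 to 8548 CPM, replicate 1 being inside the control range (log2 fold change 0.34, SE 0.09, adjusted p = 0.0213). mt-Co2, which takes electrons from cytochrome c, had 2678, 3323 and 2844 CPM against 2227, 2330.3, 2329, 1953, 1517 and 1965 CPM in control replicates 1 to 6, with control replicate 5 the lowest (log2 fold change 0.52, SE 0.13, adjusted p = 0.021). Without that control the log2 fold change of mt-Co2 was 0.44 (adjusted p = 0.0104). mt-Co3 had 2539, 2949.6 and 2585 CPM against 1934 to 2395 CPM (log2 fold change 0.28, SE 0.07, adjusted p = 0.0155).

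The other 5 were positive without a call. They were mt-Nd1 (log2 fold change 0.25, SE 0.08, adjusted p = 0.0641), for which the groups did not overlap, mt-Atp6 (0.25, SE 0.12), mt-Atp8 (0.16, SE 0.11), mt-Nd3 (0.16, SE 0.08) and mt-Nd2 (0.09, SE 0.10). With 3 L-gp130 libraries, single ones weighed heavily: without L-gp130 replicate 2 or 3 the number called up was 3, and over all 9 fits it ran from 3 to 9. The 12S ribosomal RNA mt-Rnr1 was called up as well, at 241 to 334 CPM against 172 to 224 CPM (log2 fold change 0.53 (SE 0.10, adjusted p = 0.00455)), and the 16S RNA mt-Rnr2 was not (log2 fold change 0.05 (SE 0.10, adjusted p = 0.784)). These ribosomal RNAs entered through polyA selection, so their levels depend on how many of their molecules carry adenines.

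In CD4 cells 0 of the 13 mitochondrially encoded genes were called by edgeR, and 0 had an unadjusted p under 0.05, with 5 positive and a median of -0.09. DESeq2, limma-voom and the other alternatives also called 0. The sign of this median depends on how sex is handled. The group means were higher in L-gp130 than in control CD4 cells for all 13 genes, for instance 10435 ± 2945 (SD, n = 6) against 8477 ± 1666 (SD, n = 6) CPM for mt-Co1. With the labelled sex in the fit, however, mt-Co1 had a log2 fold change of 0.01 (SE 0.14, adjusted p = 0.976) and mt-Nd6 of -0.17 (SE 0.12, adjusted p = 0.37). Without the sex term the median was 0.21 with all 13 positive, and with the sex read from the transcripts 0.04 with 10 positive, again with 0 called. Among labelled females alone (2 L-gp130, 5 controls, with the mismatched library among the latter) it was -0.08 with 5 positive. The fitted difference between males and females had a median of 0.58 over the 13 genes in CD4 cells, all 13 higher in males, beside 0.11 over nuclear members and 0.01 over all genes. In CD8 cells it was 0.04 over the 13 genes, 9 being positive. Since 4 of the 5 CD4 libraries labelled male were L-gp130 and 1 was a control, sex and genotype are largely tied in this comparison.

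For mt-Co1 the lowest, median and highest levels were 7529.8, 9988 and 14522 CPM in L-gp130 and 7603, 7799 and 11859 CPM in control CD4 libraries. For mt-Atp6, the subunit of the proton channel, they were 2506, 3237 and 3960.4 and 2189, 2318 and 3845 CPM, and for mt-Nd5 1259.8, 1516 and 2304 and 1401, 1443 and 2057 CPM. The highest control was replicate 1 for all 3 genes. The groups overlapped for all 13 genes.

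**Figure D4:**
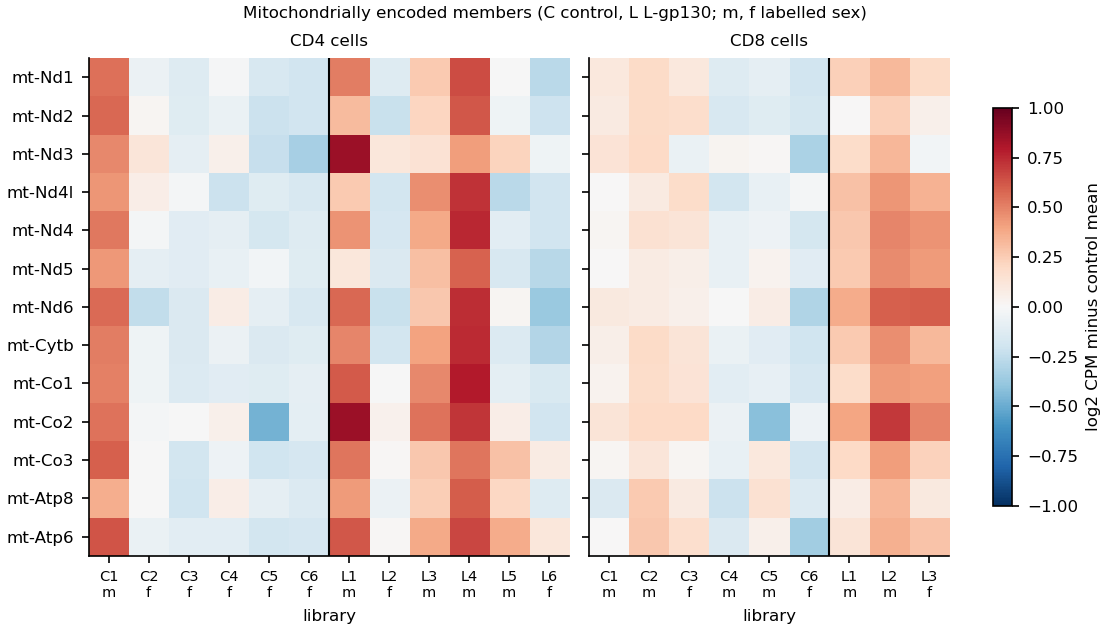
Log2 CPM of the 13 mitochondrially encoded members in each library, minus the mean of the controls of the same cell type, with control libraries (C) left and L-gp130 libraries (L) right of the line and the labelled sex (m, f) under each. In CD4 cells control replicate 1 and L-gp130 replicates 1, 3 and 4, all labelled male, are high across the genes, and in CD8 cells the 3 L-gp130 libraries are high for most genes, in both sexes.

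A joint fit of all 21 libraries asked whether the genotype effect differed between CD8 and CD4 cells (an interaction term). Of 15758 genes tested, 545 were called (3.46%), and 0 of the 87 nuclear and 0 of the 13 mitochondrially encoded members were among them. An unadjusted p under 0.05 was reached by 6 nuclear and 1 mitochondrially encoded member, where 17.5% of all genes reached it, and limma-voom also called 0. The mitochondrially encoded genes had a median difference (CD8 minus CD4) of 0.24 in log2 fold change, with 12 of 13 positive, and the nuclear genes -0.09 with 20 of 87 positive, beside -0.04 and 45.0% positive over all genes. The mitochondrially encoded median was 0.06 with 10 positive without the sex term. It was 0.14 without control CD4 replicate 1, 0.16 without L-gp130 CD4 replicate 6, 0.37 without L-gp130 CD8 replicate 1 and 0.39 without control CD8 replicate 3. The nuclear median was -0.06 and -0.05 without L-gp130 CD4 replicates 1 and 5, and -0.04 without L-gp130 CD8 replicate 3. The 2 cell types thus had calls in different numbers, but no member was shown to respond differently. The smallest adjusted p belonged to Cox8a, whose difference was -0.29 (SE 0.11, adjusted p = 0.147). The complex III subunits Uqcrh and Uqcrb followed, at -0.24 (SE 0.10, adjusted p = 0.188) and -0.32 (SE 0.13, adjusted p = 0.192). mt-Nd5 had 0.44 (SE 0.19, adjusted p = 0.224), Atp5j, a subunit of the ATP synthase stalk, -0.18 (SE 0.08, adjusted p = 0.242), and Ndufaf3, an assembly factor of complex I, -0.30 (SE 0.14, adjusted p = 0.267). Uqcrb illustrates the size: its L-gp130 and control values were 36.2, 39.6 and 52.3 against 29.4, 32.7 and 36.1 CPM in CD4 cells, without overlap, and 37.9, 37.6 and 29.6 against 32.9 to 36 CPM in CD8 cells.

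Genes that feed or build the complexes moved in both directions. Of 27 tested electron carriers and ATP synthase partners, 3 were called up and 1 down in CD4 cells, where 11.1% of all genes were called up and 7.75% down, and 6 up and 3 down in CD8 cells, where 10.5% of all genes were called in each direction. The CD4 counts are thus no higher than the background. Gpd2, the mitochondrial glycerol phosphate dehydrogenase that passes cytosolic electrons to ubiquinone, was lower in both, at 18.3 to 27.5 against 34.7 to 44.9 CPM in CD4 cells, a log2 fold change of -0.79 (SE 0.12, adjusted p = 0.0007), and of -0.68 (SE 0.15, adjusted p = 0.012) in CD8 cells. The ADP/ATP carriers Slc25a4 and Slc25a5 rose in CD4 cells, by 0.43 (SE 0.07, adjusted p = 0.0012) and 0.35 (SE 0.09, adjusted p = 0.0161) on the log2 scale. In CD8 cells Slc25a5 rose by 0.23 (SE 0.06, adjusted p = 0.0182) and Slc25a4 had -0.05 (SE 0.08, adjusted p = 0.669). Atpif1, the inhibitor of ATP hydrolysis by the ATP synthase, rose in CD8 cells by 0.67 (SE 0.11, adjusted p = 0.00242), and Usmg5, a small ATP synthase subunit outside the symbol rule, by 0.40 (SE 0.08, adjusted p = 0.00772). Dmac1, an assembly factor of complex I, was lower in CD8 cells at -0.44 (SE 0.09, adjusted p = 0.00702). In CD4 cells Atpif1 had 0.88 (SE 0.38, adjusted p = 0.136).

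In the citric acid cycle and its pyruvate entry, 5 of 21 genes were called up and 3 down in CD4 cells, and 2 up and 3 down in CD8 cells, beside the same background of 11.1% and 7.75% in CD4 and 10.5% each way in CD8 cells. The 2 CD8 rises are near it. Idh3a, the catalytic subunit of the NAD-dependent isocitrate dehydrogenase, rose in both, at 58.7 to 85.9 against 47.2 to 52.7 CPM in CD4 and 84.4 to 94.9 against 57.2 to 70.0 CPM in CD8 cells, with log2 fold changes of 0.51 (SE 0.09, adjusted p = 0.00252) and 0.51 (SE 0.09, adjusted p = 0.00262). Idh2, the NADP-dependent enzyme, fell in both, with log2 fold changes of -0.54 (SE 0.09, adjusted p = 0.00134) and -0.37 (SE 0.09, adjusted p = 0.0181). Pdk1, a kinase that switches off pyruvate dehydrogenase, had 125 to 136 against 202 to 293 CPM in CD8 cells, a log2 fold change of -0.91 (SE 0.10, adjusted p = 0.00034), and Pdk3, another such kinase, rose in CD4 cells by 0.66 (SE 0.10, adjusted p = 0.00079).

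Of 40 further assembly factors tested in CD4 cells 1 was called up (Cox20, 0.27 (SE 0.09, adjusted p = 0.046)) and 0 down, and of 41 in CD8 cells 0 were called up and 2 down (Cox10, -0.33 (SE 0.10, adjusted p = 0.034), and Cox14, -0.27 (SE 0.09, adjusted p = 0.0488)). Of 28 genes for mitochondrial DNA expression and biogenesis, 1 was called up and 2 down in CD4 cells, and 1 up and 1 down in CD8 cells. These counts of assembly and biogenesis genes are all at or below the background of 11.1% up and 7.75% down in CD4 and 10.5% each way in CD8 cells. The biogenesis genes called in CD4 cells were Gabpb1, the partner subunit of the ETS factor GABP (0.26 (SE 0.06, adjusted p = 0.0118)), Polg2, the accessory subunit of the mitochondrial DNA polymerase (-0.49 (SE 0.15, adjusted p = 0.0324)), and Foxo1 (-0.49 (SE 0.14, adjusted p = 0.0326)). In CD8 cells they were Myc (0.64 (SE 0.18, adjusted p = 0.0331)) and Foxo1 (-0.48 (SE 0.13, adjusted p = 0.0295)). Tfam, which packages mitochondrial DNA and takes part in its transcription, had 0.13 (SE 0.15, adjusted p = 0.584) in CD4 and -0.05 (SE 0.12, adjusted p = 0.817) in CD8 cells, and Nrf1 0.07 (SE 0.10, adjusted p = 0.663) and 0.02 (SE 0.10, adjusted p = 0.894). The medians of these lists were between -0.05 and 0.03 for assembly factors and between -0.02 and 0.05 for biogenesis genes, beside -0.01 over all genes in each cell type.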

How the data were processed

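RNA sequencing libraries of sorted splenic CD4+ and CD8+ T cells from L-gp130 and control mice (21 libraries) were used as deposited. The submitters' processing notes name the build GRCm38, Salmon 1.5.2, edgeR 3.34.1, cutadapt 3.4 and Trimmomatic 0.39, with no role or order. The authors deposited estimated counts per gene for each cell type, and per library Salmon's estimated counts and TPM per transcript, per the file headers. The sources used here do not give the annotation release. GENCODE mouse release 21 gave symbols for 51115 of 51201 gene IDs, and 694 transcripts, with at most 0.209% of a library's reads, had no match.

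Estimated gene counts were rounded, filtered by filterByExpr and scaled by TMM. Each cell type had its own edgeR quasi-likelihood fit (version 4.0.16, R 4.3.3, robust, 2-sided) with labelled sex as covariate, and p-values were adjusted over all genes tested by Benjamini and Hochberg and called under 0.05. The interaction used Salmon's reads summed per gene over all libraries. SE was derived from each fold change and its F statistic (the absolute log2 value divided by the root of F). CPM are TMM-normalised, and TPM are sums over a gene's transcripts. Libraries held 17217364 to 35869208 counts. Counting error weighs on rare genes such as Cox6a2, which had 67.0 counts over the 6 L-gp130 CD4 libraries. The labels do not say whether CD4 and CD8 libraries share mice, and nothing beyond the mouse numbers says how samples were replicated, so p-values measure the spread between these samples.

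Genes were named by a rule: all mitochondrially encoded members, and per cell type and complex up to 4 called nuclear members with the smallest adjusted p, those called against the majority, up to 6 for the interaction, isoform pairs, and up to 3 called genes per related list. Members and lists were chosen with earlier results of these data known. Alternatives included DESeq2 1.42.0, limma-voom (limma 3.58.1), RLE scaling, no filter, a filter at CPM 1, other handling of sex, Salmon reads, equal depth, a stricter threshold, a replicate block and leaving out libraries. The fits were tested on simulated data. A missing call is not read here as absence of a change.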

Additional observations from a re-analysis of the deposited data

Results flagged for a closer look

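Single libraries stood apart from the rest of their group, by the gap to the nearest library relative to the group's range, for 16 values. Chance alone sets apart about 1 in 20 groups. Control CD4 replicate 1 was the highest of the 6 controls for all 13 mitochondrially encoded genes. It stood apart by this measure for 9 of them, at 11860 CPM of mt-Co1, 4112 of mt-Co3, 3845 of mt-Atp6, 3300 of mt-Cytb, 2616 of mt-Nd4, 2388 of mt-Nd1, 2057 of mt-Nd5, 1491 of mt-Nd2 and 477 of mt-Nd6. Its mitochondrially encoded genes summed to 111400 TPM and stood at 7.88 times the nuclear sum. All but mt-Nd6 come from 1 strand and share its transcript, so the values are not independent. The library is the single control CD4 library labelled male. Without it every CD4 library labelled male was L-gp130, so the fit with labelled sex drew the genotype effect from labelled females alone. The median log2 fold change of the 13 genes was then -0.08 with 0 called. Control CD4 replicate 1 was also the highest for Atp5d, at 139 CPM. L-gp130 CD4 replicate 1 was the highest of its group for Cox8a, at 207 CPM, and for Cox5a, at 126 CPM. Among control CD8 libraries, replicate 3 was the lowest for Cox7a2l, at 374 CPM, and replicate 6 was the lowest for mt-Nd6, at 208 CPM.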

How the results depend on the processing

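The number of nuclear members called up in CD4 cells (10) was 21 with DESeq2, 3 without a filter, 44 without the sex term, 25 with sex read from transcripts, 6 at equal depth, 0 at an adjusted p under 0.01 and 30 among labelled females (chosen after seeing the data), and 0 to 27 when 1 library was left out. In CD8 cells (14) it was 7 without a filter, 8 without the sex term, 1 at an adjusted p under 0.01, 4 among labelled males (chosen after seeing the data), 5 without control replicates 4 to 6 and 2 to 14 when 1 library was left out. Salmon reads called 2 nuclear members down there instead of 1. The number of mitochondrially encoded members called up in CD8 cells (8) was 3 at an adjusted p under 0.01, 4 among labelled males and 3 to 9 when 1 library was left out, 12 without control replicates 1 to 3 and 6 without replicates 4 to 6. Their median log2 fold change (0.34) was 0.44 and 0.23 in the last 2 fits and 0.22 with the replicate block. The cause was not tested. Counts for the interaction were 0 in all 28 alternatives run.

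Replicate numbers did not pair the samples: same-numbered libraries had correlations of -0.29 to 0.22 in CD4 and -0.03 to 0.21 in CD8 cells, and a library correlated best with its own number for 1 number in each. With the replicate number as a block, 11 nuclear members were called up in CD4 and 5 in CD8 cells, where sex could not be fitted beside it.

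Signs that turned belong to values that were not called. In CD4 cells without the sex term, log2 fold changes became 0.18 for mt-Nd1, 0.12 for mt-Nd2, 0.23 for mt-Atp8, 0.21 for mt-Nd4, 0.0896 for mt-Nd5, 0.20 for mt-Nd6, 0.20 for mt-Cytb and 0.17 for mt-Nd4l. With sex read from transcripts they became 0.0164 for mt-Nd1, 0.10 for mt-Atp8, 0.0443 for mt-Nd4, 0.0210 for mt-Cytb and 0.0192 for mt-Nd4l. mt-Co1 became -0.0055 with limma-voom, -0.0166 without a filter and -0.0105 at equal depth. Dropping control replicate 5 together with L-gp130 replicate 1 gave -0.0123 for mt-Co1, -0.0628 for mt-Co2 and -0.0206 for mt-Nd3. Salmon reads gave -0.0047 for mt-Nd3 and -0.0197 for Ndufv3, the block gave 0.0066 for mt-Atp8, and labelled females gave -0.12 for Cox6b2. In CD8 cells mt-Nd2 became -0.0531 with the block and -0.0465 without control replicates 4 to 6. Leaving out 1 library at a time gave -0.12 to 0.82 for Cox6b2, -0.0499 to 0.0575 for mt-Co1, -0.0306 to 0.0761 for mt-Co2, -0.0534 to 0.0083 for mt-Atp8 and -0.0346 to 0.16 for mt-Co3 in CD4 cells, and -0.0605 to 0.0108 for Ndufa3 in CD8 cells.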

Other observations

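The share of mt-Co2 among mitochondrially encoded transcripts set 1 replicate number apart in both cell types. mt-Co2 counts were 8.72% of those of the other 12 genes in control CD4 replicate 5, where the other 5 controls ranged from 11.04% to 12.02% and the L-gp130 CD4 libraries from 10.5% to 13.8%. In control CD8 replicate 5 they were 7.52%, where the other 5 controls ranged from 9.97% to 10.9% and the L-gp130 CD8 libraries from 10.9% to 12.1%. Control CD4 replicate 5 is the library whose sex-linked transcripts went against its label. This ratio was singled out after its values were seen, and the labels do not say whether equal numbers mark the same mouse.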
